A study of Mus musculus with 6 samples.

Results

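The transcription factors TFEB, TFE3 and MITF and the folliculin and Rag proteins that hold them under the control of mTOR were examined as 10 genes: Tfeb, Tfe3, Mitf, Flcn, Fnip1, Fnip2, Rraga, Rragc, Rragd and Mtor. They were taken from the deposited expression table by gene symbol, and all 10 were found among its 26898 genes. RNA was sequenced from primary mouse embryonic fibroblasts (MEFs), connective tissue cells grown directly from embryos, of the C57BL/6 strain at passage 3. WT cells (samples 4, 5 and 8) carried the genotype Kansl1fl/fl, in which recombination sites flank part of Kansl1 on both alleles. KO cells (samples 3, 7 and 10) carried Kansl1fl/fl/CAG-cre, with the same alleles and a Cre recombinase that is expressed from the broadly active CAG promoter and is inducible by tamoxifen. Cells of both groups received 1 µM tamoxifen for 48 h. Only the KO cells held Cre, so the loss of Kansl1 and the presence of active Cre cannot be told apart. Kansl1 encodes a scaffold of the NSL complex, which acetylates histone H4.

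TFEB, TFE3 and MITF belong to the MiT/TFE family of basic helix-loop-helix proteins, which switch on genes for lysosomal enzymes and autophagy. When amino acids are plentiful, Rag GTPases, as a RagA or RagB protein paired with a RagC or RagD protein, carry the kinase complex mTORC1 to the lysosomal surface, where it phosphorylates the MiT/TFE proteins and keeps them in the cytoplasm. Folliculin (Flcn), bound to either of the folliculin-interacting proteins Fnip1 or Fnip2, sets the nucleotide state of RagC and RagD and is needed for that step. Activity of these proteins is set largely by phosphorylation and location, which RNA levels do not show.

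Among the 10 genes, Flcn and Fnip1 rose in KO MEFs, by 1.75-fold and 1.56-fold in mean TPM (a read count normalised for gene length and for the size of the library). No other of the 10 passed the call, which asked for a Benjamini-Hochberg adjusted p under 0.005 over all genes tested with limma and a log2 fold change, on the log2(TPM + 1) scale, beyond 0.5 in either direction. The 10 genes and the lists given later were chosen with earlier results of these data known, so their shares are descriptions. The 2 genes called higher out of 10 stand beside 1.64% of the 14799 tested genes called higher. Of the 10 genes, 0 were called lower, beside 9.03% of all tested genes. At an unadjusted p under 0.05 in the same limma fit, 6 of the 10 were higher, beside 12.2% of all tested genes, and 2 were lower, beside 27.2%. After median-of-ratios scaling 7 of the 10 were higher at that p, beside 25.5%. A gene was tested if its mean reached 1 TPM in either group. Tfeb, whose KO mean lay below that limit, entered the test through its WT mean, in the group where it is high, and the other 9 genes reached the limit in both groups. The median log2 fold change over the 10 genes was 0.37, and over all tested genes it was -0.07.

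Before these values are given, the windows upstream of 3 of the genes are shown, because MiT/TFE proteins are known to bind the letters CACGTG in promoters. The windows of Flcn and Fnip1 belong to the called genes, and those of Fnip1 and Rragc were the windows among the 10 genes that held the letters. Each window is the 250 bases before the transcription start in RefSeq on build GRCm38.p6, written 5′ to 3′ on the strand of the gene, with CACGTG in capitals. The Flcn window lies at chr11:59810040-59810289 on the minus strand, the Fnip1 window at chr11:54437929-54438178 on the plus strand and the Rragc window at chr4:123917183-123917432 on the plus strand.
Flcn: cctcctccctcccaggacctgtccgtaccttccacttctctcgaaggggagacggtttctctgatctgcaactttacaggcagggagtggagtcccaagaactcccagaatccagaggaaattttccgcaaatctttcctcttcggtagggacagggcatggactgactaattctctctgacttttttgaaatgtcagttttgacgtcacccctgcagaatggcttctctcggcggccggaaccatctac
Fnip1: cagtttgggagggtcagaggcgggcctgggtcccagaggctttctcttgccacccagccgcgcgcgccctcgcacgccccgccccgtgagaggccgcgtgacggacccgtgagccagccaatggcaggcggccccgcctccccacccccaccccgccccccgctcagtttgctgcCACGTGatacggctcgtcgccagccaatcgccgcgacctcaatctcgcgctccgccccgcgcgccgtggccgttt
Rragc: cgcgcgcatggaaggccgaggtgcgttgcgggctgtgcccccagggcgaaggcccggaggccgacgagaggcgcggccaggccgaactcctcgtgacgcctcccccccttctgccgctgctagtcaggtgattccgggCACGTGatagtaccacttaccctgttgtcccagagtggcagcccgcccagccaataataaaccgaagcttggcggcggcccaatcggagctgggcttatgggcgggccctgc
The search covered CACGTG and 2 longer forms that contain it, TCACGTGA and the palindrome of 10 letters known as the CLEAR consensus. All read the same on both strands. CACGTG occurred once in the Fnip1 window, with its first base 75 bp before the start, and once in the Rragc window, 112 bp before the start. In both it was followed by the letters ata. No match was found in the windows of the other 8 genes, 1 to 3 windows per gene and 15 windows for the 10 genes in all. Of 27025 genes with a window, 6.86% held CACGTG, 0.907% held TCACGTGA and 0.27% held the CLEAR consensus, and none of the 10 genes held either longer form. CACGTG contains the letters CG, which occurred 32 times in the Fnip1 window, 24 times in that of Rragc and 9 times in that of Flcn. The Fnip2 window held CG 33 times and no match. The shares over all genes were not matched for CG content. In GENCODE M21 the Flcn window overlapped exons of Gm16062 on the opposite strand by 182 bp, and the Rragc window overlapped those of Gm12905, also on the opposite strand, by 87 bp. A match describes the letters of a window and is not a measured binding site, and a window without a match says nothing about binding elsewhere.

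The samples gave 17655495 to 27718259 reads assigned to genes, recovered from the TPM values and gene lengths, and KO 3 had the fewest. A single small RNA, Gm23935, took 15.5% to 25.6% of all TPM, the most in KO 3. Kansl1 itself was 26.6 ± 2.06 TPM in WT and 14.6 ± 1.04 TPM in KO (SD, n = 3), or 55.1% of WT, with no overlap between the groups (log2 fold change -0.82, limma adjusted p = 0.000859). That value sums the whole gene, retained exons included. The flanked part was not measured on its own, so whether recombination was complete in the KO cells was not tested. Of 8 fibroblast markers, all were expressed and 0 were called changed with limma (Twist1 had an unadjusted p under 0.05). Their summed level was 7247 to 11280 TPM in WT and 8280 to 10905 TPM in KO. Of 6 macrophage markers, Lyz2 was called higher and 4 had all KO samples above all WT samples (Lyz2, Adgre1, Csf1r and Cd68). Acp5 had the opposite direction, at 0.959 TPM in WT and 0.432 TPM in KO, with overlapping groups. Their summed level was 29.4 to 32.3 TPM in WT and 64.0 to 132 TPM in KO, most of it Lyz2 (means of 22.5 and 73.6 TPM), and KO 10 was the highest for Lyz2, at 111 TPM. Ptprc, which defines blood cells, was 0.0872 to 0.0921 TPM in WT on 13 to 16 reads, against 0.113, 0.0902 and 0.257 TPM in KO 3, 7 and 10 on 15, 16 and 42 reads, so that it was low in every sample, overlapped between groups and was also highest in KO 10. The summed level of 3 endothelial markers was 1.03 to 1.74 TPM in WT and 2.23 to 2.86 TPM in KO, and that of 3 epithelial markers 1.01 to 1.95 TPM and 2.53 to 3.52 TPM. The 3 muscle markers summed to at most 1.58 TPM in any sample. In bulk RNA, a change in the number of cells of a type and a change in RNA per cell cannot be told apart.

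**Figure D1:**
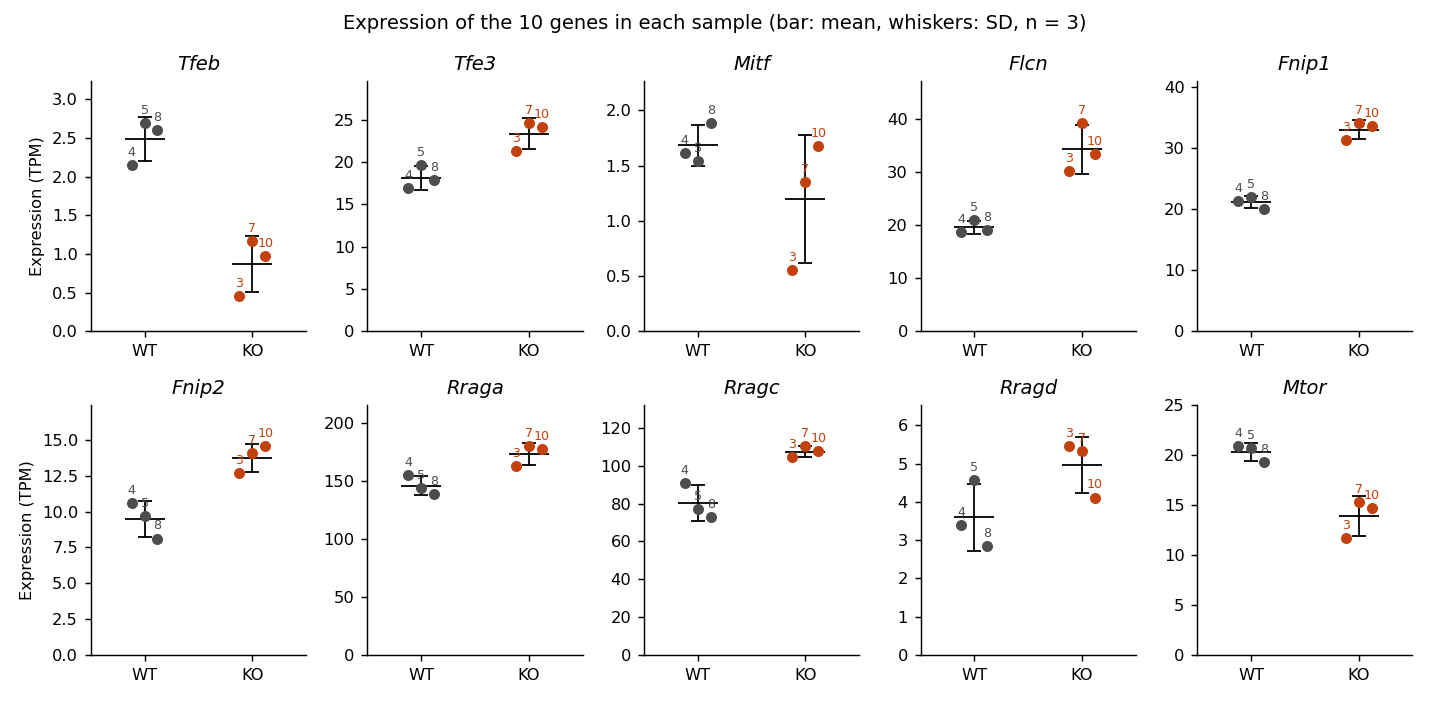
Expression of the 10 genes in TPM, with each linear axis starting at 0. Points are single samples with their numbers (WT 4, 5 and 8, grey; KO 3, 7 and 10, orange), the bar is the mean and the whiskers are the SD over 3 samples. Flcn, Fnip1, Fnip2, Tfe3, Rraga and Rragc lie higher in each KO sample than in any WT sample, Tfeb and Mtor lie lower, and Mitf and Rragd overlap.

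The levels of the 10 genes spanned a wide range. In these TPM, reads are divided by the merged length of all annotated exons, such as 9261 bp for Tfe3 and 5669 bp for Tfeb. Any order between genes depends on that length. In WT cells Rraga was the most abundant at 146 ± 8.24 TPM, followed by Rragc at 80.5 ± 9.52 TPM (SD, n = 3). Fnip1, Mtor, Flcn and Tfe3 came next at 21.1, 20.3, 19.5 and 18.1 TPM, and each overlapped its neighbour in this order. Below them lay Fnip2 at 9.47 TPM, Rragd at 3.59 TPM, Tfeb at 2.48 TPM and Mitf at 1.68 TPM, whose ranges did not touch. In KO cells the order from the top was Rraga, Rragc, Flcn, Fnip1, Tfe3, Mtor, Fnip2, Rragd, Mitf and Tfeb. The ranges of Flcn and Fnip1 overlapped there, as did those of Mtor and Fnip2 and of Mitf and Tfeb. Mtor thus stood among the 4 genes between 18.1 and 21.1 TPM in WT and beside Fnip2 in KO.

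Tfeb (ENSMUSG00000023990.18; mm10 chr17:47737030-47792419, plus strand) encodes the family member best known as a master regulator of lysosome formation. It measured 2.16, 2.70 and 2.60 TPM in WT 4, 5 and 8, against 0.461, 1.17 and 0.968 TPM in KO 3, 7 and 10. Every KO value was below every WT value, and KO 3 was the lowest. The KO mean of 0.865 ± 0.363 TPM was 34.8% of the WT mean of 2.48 ± 0.289 TPM (SD, n = 3). The fitted difference in log2(TPM + 1), a scale that shrinks changes of genes this low, was -0.92 (SE 0.20, 95% confidence interval -1.38 to -0.46, limma adjusted p = 0.00917), which missed the call. These values rest on 99 to 140 reads in WT and 19 to 64 reads in KO. Since Tfeb was tested only because of its WT level, its test is not independent of that choice. In a fit of every gene in the table, with no such filter, the log2 fold change was also -0.92 and the limma adjusted p was 0.0285. With voom on the recovered reads of the filtered genes it was called lower at -1.45 (limma adjusted p = 0.00236), and adjusted p ranged from 0.00236 to 0.0337 over 12 fits. At an adjusted p under 0.05 with the same fold limit, Tfeb and Mtor were the 2 of the 10 genes called lower, beside 16.6% of all tested genes, while 2 of the 10 were called higher, beside 4.69%.

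Tfe3 (ENSMUSG00000000134.17; chrX:7762560-7775202, plus strand) encodes a close relative of TFEB that acts on many of the same genes. Its level was 16.9, 19.6 and 17.8 TPM in WT, against 21.3, 24.6 and 24.1 TPM in KO. All KO samples were above all WT samples, whereas for Tfeb all were below. Means were 18.1 ± 1.38 TPM and 23.3 ± 1.81 TPM, a ratio of 1.29, with a log2 fold change of 0.35 (SE 0.11, 95% confidence interval 0.10 to 0.60, limma adjusted p = 0.0410), which missed the call. Mitf (ENSMUSG00000035158.15; chr6:97807052-98021349, plus strand), the family member known for the melanocyte lineage, measured 1.61, 1.55 and 1.89 TPM in WT, against 0.555, 1.35 and 1.68 TPM in KO. The groups overlapped, and KO 3 stood well below the other samples. The log2 difference was -0.32 (95% confidence interval -0.84 to 0.19, limma adjusted p = 0.329), and without KO 3 it was -0.09. The melanocyte markers Dct and Tyrp1 had at most 2 reads in any sample, and the 4 melanocyte markers in the table summed to 2.18 to 5.11 TPM in WT and 3.19 to 3.60 TPM in KO, most of it Sox10.

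Tfec, the fourth family member, was below 1 TPM in both groups and was not among the 14799 genes tested. It measured 0.154, 0.143 and 0.0943 TPM in WT, against 0.492, 0.332 and 0.541 TPM in KO, on 5 to 7 reads in WT and 18 to 27 reads in KO. KO samples were all above WT samples at 3.49 times the mean level. In a fit of every gene in the table the log2 fold change was 0.36 (limma adjusted p = 0.0382), which missed the call. Tfec is known to be expressed in macrophages, and the sum of macrophage markers, most of it Lyz2, was higher in the same 3 samples, as given above. Its part in the Tfec values was not tested.

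With all 4 genes added together, the MiT/TFE family amounted to 20.8, 24.0 and 22.4 TPM in WT, against 22.8, 27.5 and 27.3 TPM in KO. The sums overlapped between the groups, at means of 22.4 ± 1.59 TPM and 25.9 ± 2.66 TPM (SD, n = 3). Tfe3 supplied most of the family TPM in every sample, a share that depends on the exon lengths used. Its share was 81.1%, 81.7% and 79.5% in WT and 93.4%, 89.6% and 88.3% in KO. The difference of 9.65 percentage points exceeded the spread between samples, with no overlap (exact two-sided permutation test, p = 0.1, adjusted p = 0.15 over 6 balances). With 3 samples against 3, 0.1 is the smallest p this exact permutation test can give. The log2 ratio of Tfeb to Tfe3 went from -2.87 ± 0.0978 in WT to -4.86 ± 0.594 in KO, and that of Mitf to Tfe3 from -3.43 ± 0.216 to -4.43 ± 0.740. Neither ratio overlapped between groups (exact two-sided permutation test, p = 0.1 for each). The difference of -1.001 for Mitf to Tfe3 was -0.59 without KO 3. With 1 TPM added to each gene the difference for Tfeb to Tfe3 was -1.27 instead of -1.99, and that for Mitf to Tfe3 was -0.67. A ratio of 2 genes within a sample does not depend on how the library was scaled.

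**Figure D2:**
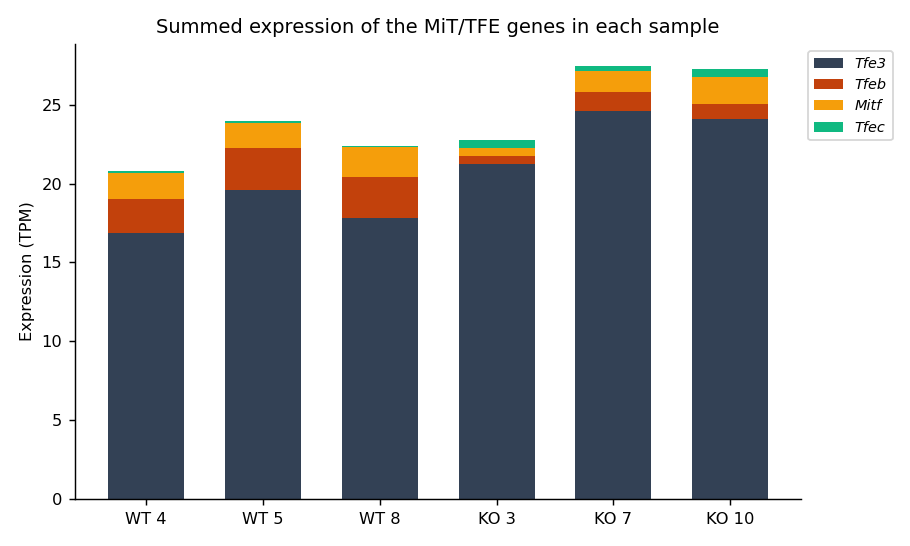
Stacked bars of the MiT/TFE genes in TPM for each of the 6 samples, on a linear axis from 0. Tfe3 fills 79.5% to 81.7% of the bar in WT and 88.3% to 93.4% in KO, the Tfeb segment is smaller in each KO sample than in any WT sample, and the whole bars overlap in height between groups.

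Flcn (ENSMUSG00000032633.12; chr11:59791408-59810016, minus strand) encodes folliculin, the tumour suppressor lost in Birt-Hogg-Dubé syndrome. It measured 18.6, 20.9 and 19.1 TPM in WT 4, 5 and 8, against 30.1, 39.2 and 33.4 TPM in KO 3, 7 and 10. The groups were clearly apart, with the lowest KO sample 30.1 TPM against a highest WT sample of 20.9 TPM. Flcn rose from a mean of 19.5 ± 1.22 TPM to 34.3 ± 4.61 TPM (SD, n = 3), a log2 fold change of 0.77 (SE 0.12, 95% confidence interval 0.50 to 1.04, limma adjusted p = 0.00171). It had the largest change upward of the 10 genes. The counts behind it were 651 to 792 reads in WT and 947 to 1643 reads in KO. Over 13 fits its log2 fold change stayed between 0.67 and 0.89. The call was lost without WT 8 (0.76, limma adjusted p = 0.00630), without KO 7 (0.67, limma adjusted p = 0.00557), without KO 10 (0.79, limma adjusted p = 0.00585) and without a filter on low genes (0.77, limma adjusted p = 0.00845), with adjusted p from 7.39e-05 to 0.00845 over all fits.

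Fnip1 (ENSMUSG00000035992.15; chr11:54438199-54518235, plus strand) encodes a partner with which folliculin forms a stable complex. It measured 21.4, 22.03 and 20.01 TPM in WT, against 31.2, 34.1 and 33.5 TPM in KO. Both groups were tight, and no sample of one reached the other. Fnip1 rose from 21.1 ± 1.03 TPM to 33.0 ± 1.53 TPM (SD, n = 3), a log2 fold change of 0.62 (SE 0.099, 95% confidence interval 0.40 to 0.84, limma adjusted p = 0.00195). Over 13 fits the log2 fold change was 0.58 to 0.73. The call was lost without WT 5 (0.65, limma adjusted p = 0.00755), WT 8 (0.58, 0.00783), KO 7 (0.59, 0.00778) or KO 10 (0.61, 0.0130), and without a filter (0.62, 0.00598), each from limma.

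Fnip2 (ENSMUSG00000061175.11; chr3:79455974-79567796, minus strand) encodes the second folliculin partner. Its samples were 10.6, 9.71 and 8.12 TPM in WT, against 12.7, 14.1 and 14.5 TPM in KO. All KO samples again lay above all WT samples. The mean ratio was 1.45 and the log2 fold change 0.50 (SE 0.13, 95% confidence interval 0.22 to 0.78, limma adjusted p = 0.0168), which missed both limits of the call, the fold limit by a margin lost in rounding. Fnip2 was called higher after median-of-ratios scaling of TPM (0.60, limma adjusted p = 0.00132) and with voom on recovered reads (0.63, limma adjusted p = 0.000253). Added together, the transcripts of both Fnip genes came to 32.0, 31.7 and 28.1 TPM in WT, against 43.9, 48.2 and 48.1 TPM in KO, 1.53 times the WT mean. Fnip1 outweighed Fnip2 in every sample, and the log2 ratio of Fnip2 to Fnip1 overlapped between WT (-1.17 ± 0.144) and KO (-1.26 ± 0.0508; exact two-sided permutation test, p = 0.3).

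The 3 genes most like Flcn across the 6 samples, by Pearson correlation of log2(TPM + 1), were Aacs (r = 0.999), an acetoacetyl-CoA synthetase gene, 4933421O10Rik (r = 0.998) and Kctd8 (r = 0.997). These are descriptions over 6 samples that share a difference between 2 groups, and 439 of 14798 genes had an r above 0.95 with Flcn. Their KO and WT means were 97.1 and 75.4 TPM for Aacs, 6.36 and 3.15 TPM for 4933421O10Rik and 2.31 and 1.79 TPM for Kctd8.

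Of the Rag GTPases, Rraga (ENSMUSG00000070934.6; chr4:86575668-86577285, plus strand), a gene of 1 exon encoding RagA, measured 155, 144 and 139 TPM in WT, against 163, 180.0 and 178 TPM in KO. The KO samples were all above the WT samples, by a small step. The mean ratio was 1.19 and the log2 fold change 0.25 (SE 0.094, 95% confidence interval 0.03 to 0.46, limma adjusted p = 0.0813), which missed the call. Rragc (ENSMUSG00000028646.16; chr4:123917446-123936997, plus strand), encoding the RagC protein on which folliculin acts, measured 91.2, 77.3 and 72.9 TPM in WT, against 104, 110.2 and 108 TPM in KO. WT samples varied more than KO samples, and the groups did not overlap. The ratio of means was 1.34 and the log2 fold change 0.42 (SE 0.11, 95% confidence interval 0.18 to 0.66, limma adjusted p = 0.0167), which missed the call. Rragc was called higher after median-of-ratios scaling (0.52, limma adjusted p = 0.00208) and with voom (0.51, limma adjusted p = 0.000554). Its exons share 264 bp with 4930535I16Rik on the opposite strand, and whether reads were counted by strand was not stated.

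Rragd (ENSMUSG00000028278.14; chr4:32983037-33022180, plus strand), which encodes RagD, measured 3.39, 4.56 and 2.83 TPM in WT, against 5.45, 5.33 and 4.11 TPM in KO. KO 10 lay below WT 5, so the groups overlapped. The log2 fold change was 0.39 (SE 0.18, 95% confidence interval -0.01 to 0.78, limma adjusted p = 0.135). The log2 ratio of Rragd to Rragc was -4.51 ± 0.369 in WT and -4.45 ± 0.234 in KO, a difference of 0.06 (exact two-sided permutation test, p = 0.9). Its sign turned with 1 TPM added to each gene and without WT 4, WT 8 or KO 3, so no direction can be given.

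Rragb, the paralogue of Rraga, was not among the 10 genes and was far less abundant than Rraga. It measured 1.58, 0.960 and 0.747 TPM in WT, against 0.304, 0.183 and 0.397 TPM in KO, on 16 to 29 reads in WT and 4 to 8 reads in KO. All KO samples were below all WT samples, at 26.9% of the WT mean. The log2 fold change was -0.68 (limma adjusted p = 0.0554), which missed the call. Rragb reached the 1 TPM limit through WT only, the group where it is high, and without WT 4 it was no longer tested. In the fit of every gene its adjusted p was 0.0471 (limma). The log2 ratio of Rraga to Rragb was 7.13 ± 0.472 in WT and 9.27 ± 0.596 in KO, a difference of 2.14 with no overlap (exact two-sided permutation test, p = 0.1, adjusted p = 0.15). With 1 TPM added to each gene the difference was 0.92. RagA and RagB are close paralogues, and how reads that match both were assigned was not stated.

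Mtor (ENSMUSG00000028991.15; chr4:148448611-148557683, plus strand) encodes the kinase that phosphorylates the MiT/TFE proteins. It measured 20.9, 20.7 and 19.3 TPM in WT, against 11.7, 15.3 and 14.7 TPM in KO. All KO samples were below all WT samples, with KO 3 the lowest. The KO mean of 13.9 ± 1.97 TPM was 68.5% of the WT mean of 20.3 ± 0.881 TPM (SD, n = 3). The log2 fold change was -0.52 (SE 0.12, 95% confidence interval -0.80 to -0.25, limma adjusted p = 0.0125), which missed the call. Mtor was called lower when the fit was limited to genes with a group mean of at least 5 TPM (-0.52, limma adjusted p = 0.00476). Its adjusted p ranged from 0.000429 to 0.0449 over 13 fits, and its log2 fold change from -0.59 to -0.41. After median-of-ratios scaling (-0.43, limma adjusted p = 0.00236) and with voom (-0.46, limma adjusted p = 0.000429) Mtor missed the call on the fold limit.

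**Figure D3:**
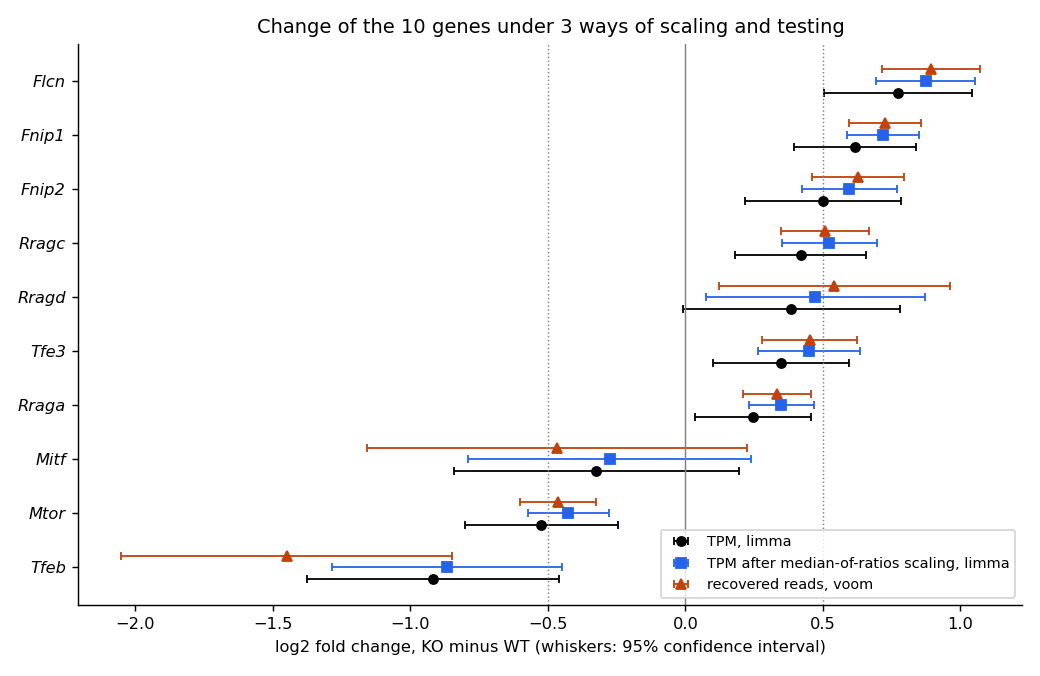
Log2 fold change of the 10 genes, KO minus WT, in 3 fits: TPM with limma (circles), TPM after median-of-ratios scaling with limma (squares) and recovered reads with voom (triangles). Whiskers are 95% confidence intervals and dotted lines mark 0.5 and -0.5. In each fit 7 genes lie above 0 and Mitf, Mtor and Tfeb lie below, and the interval of Mitf crosses 0 in all 3.

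Across the 10 genes, 6 had all KO samples above all WT samples and 2 had all KO samples below, beside 13.3% and 29.9% of all tested genes. The 6 comprised Tfe3, Flcn, Fnip1, Fnip2, Rraga and Rragc, and the 2 were Tfeb and Mtor. These counts and shares rest on TPM without further scaling and were not recounted after it. The median-of-ratios factor was lowest in KO 3, at 0.877, against 0.966 to 1.10 in WT. With that scaling, the share of all tested genes higher at an unadjusted p under 0.05 (limma) went from 12.2% to 25.5%. After median-of-ratios scaling of TPM, 4 of the 10 were called higher (Flcn, Fnip1, Fnip2 and Rragc), beside 3.2% of all tested genes, and 0 were called lower beside 9.73% (2 at an unadjusted p under 0.05, limma, beside 26.6%). With voom on recovered reads the same 4 genes were called higher, beside 3.98%, and Tfeb, tested through its WT level, was called lower, beside 12.6%. Over all tested genes, the median log2 fold change was -0.07 without further scaling, 0.02 after median-of-ratios scaling and 0.01 with voom, and no gene of the 10 changed sign in any of the 12 to 13 fits made for it.

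Other genes of the lysosomal nutrient-sensing pathway were examined as a list of 39 genes around the 10, of which 38 were in the table and 37 were tested, Rragb and Slc38a9 among them through their WT mean only. Of these, 8 fell in KO, beside 9.03% of all tested genes, 0 rose, beside 1.64%, and 29 were not called. The median log2 fold change was -0.18. At an unadjusted p under 0.05 in the same limma fit, 4 were higher, beside 12.2% of all tested genes, and 15 lower, beside 27.2%. That split depended on the scaling, since 10 were higher and 15 lower both after median-of-ratios scaling, beside 25.5% and 26.6%, and with voom, beside 24.7% and 28.4%. At the stricter call, voom called 1 higher, beside 3.98%, and 10 lower, beside 12.6%. Among the genes called lower, the 5 with the largest decreases on the log2(TPM + 1) scale were Lamtor5, Wdr24, Tbc1d7, Kptn and Lamtor4. In mean TPM, Rragb (26.9% of WT) and Slc38a9 (28.5%), which were not called and were low in both groups, stood further below WT than any of these 5.

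The Ragulator complex, which anchors the Rag GTPases to the lysosome, had 3 of 5 subunit genes called lower, beside 9.03% of all tested genes. Lamtor5 was 69.1, 71.0 and 63.9 TPM in WT, against 27.1, 29.2 and 25.0 TPM in KO, and fell to 39.8% of WT (log2 fold change -1.30, limma adjusted p = 0.000146). Lamtor4 was 26.5, 25.0 and 23.2 TPM in WT, against 9.19, 12.4 and 12.4 TPM in KO (log2 fold change -1.08, limma adjusted p = 0.000640). No KO sample of either gene came near the WT range. Lamtor2, the remaining called subunit, fell from 49.6 to 29.3 TPM in the mean and lost its call without WT 5 (-0.66, limma adjusted p = 0.00617), KO 3 (-0.71, limma adjusted p = 0.00526) or KO 10 (-0.72, limma adjusted p = 0.00593). Lamtor1, whose product fastens the complex to the membrane, was 48.5 ± 3.24 TPM in WT and 56.3 ± 6.07 TPM in KO with overlapping groups. Lamtor3 also overlapped, at 31.1 ± 3.37 and 26.9 ± 1.78 TPM (SD, n = 3).

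GATOR1 switches off RagA and RagB, GATOR2 opposes it, and KICSTOR tethers GATOR1 to the lysosome. Kptn, a KICSTOR subunit, was 7.35, 8.19 and 8.08 TPM in WT, against 2.63, 2.93 and 3.08 TPM in KO, and fell to 36.6% of WT (log2 fold change -1.19, limma adjusted p = 0.000361). Wdr24, a GATOR2 subunit, was 11.5, 14.7 and 12.6 TPM in WT, against 3.25, 6.47 and 5.65 TPM in KO (log2 fold change -1.22, limma adjusted p = 0.00234). KO 3 was the lowest sample for both genes. The call of Wdr24 was lost without WT 5 (-1.13, limma adjusted p = 0.00656), without WT 8 (-1.24, limma adjusted p = 0.00780), without the variance trend (-1.22, limma adjusted p = 0.00553) and without a filter (-1.22, limma adjusted p = 0.0170). Depdc5 was the called GATOR1 subunit, at 4.41 TPM in WT and 2.12 TPM in KO, and lost its call without any 1 of the 6 samples (-0.86 to -0.70, limma adjusted p from 0.00847 to 0.0178). The other 4 GATOR2 genes, the other 2 GATOR1 genes and the other 2 tested KICSTOR genes were not called.

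Of the TSC complex, which restrains mTORC1 through the GTPase Rheb, Tbc1d7 was 7.17, 6.40 and 6.63 TPM in WT, against 2.04, 2.78 and 2.19 TPM in KO. The groups were far apart, and Tbc1d7 fell to 34.7% of WT (log2 fold change -1.22, limma adjusted p = 0.000497). Tsc2 was also called, at 23.4 TPM in WT and 15.3 TPM in KO, but lost its call without any 1 of the 6 samples (-0.63 to -0.53, limma adjusted p from 0.00603 to 0.0182), after median-of-ratios scaling (-0.48, under the fold limit), without the variance trend (-0.58, limma adjusted p = 0.00680) and without a filter (limma adjusted p = 0.00913). Tsc1 and Rheb were not called. None of the 4 mTORC1 partner genes Rptor, Mlst8, Akt1s1 and Deptor was called, nor was any of the 5 genes for the TFEB phosphatase calcineurin, the calcium channel Mcoln1 and the exporter Xpo1, whose log2 fold changes lay between -0.09 and 0.29. The 7 genes for amino acid sensors and their relatives were not called in this fit and reached from -0.86 for Slc38a9, a lysosomal arginine sensor, to 0.79 for Sesn2, a stress-induced leucine sensor. Slc38a9 had no overlap between groups, at a mean of 1.70 TPM in WT and 0.486 TPM in KO, so that it too was tested only through the group where it is high. It was not called in the fit of every gene (-0.86, limma adjusted p = 0.00897). It was called lower after median-of-ratios scaling (-0.81, limma adjusted p = 0.00483), with voom (-1.74, limma adjusted p = 8.25e-05) and without the variance trend (-0.86, limma adjusted p = 0.00140), with adjusted p from 8.25e-05 to 0.0378 over its fits. Sesn2 was called higher at a group mean of at least 5 TPM (0.79), with voom (0.88) and without WT 5 (0.94). Castor1, a cytosolic arginine sensor, was called lower at 5 TPM (-0.52), and its relative Castor2 at 5 TPM (-0.58) and with voom (-0.55). Kptn and Lamtor5 were called in all 6 alternative fits and in all 6 fits without 1 sample, although Kptn reached the limit of 5 TPM through WT only. They were the 2 genes of the list called without a filter, beside 1.06% of all genes, and all 3 called target genes of TFEB described next missed the call there.

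**Figure D4:**
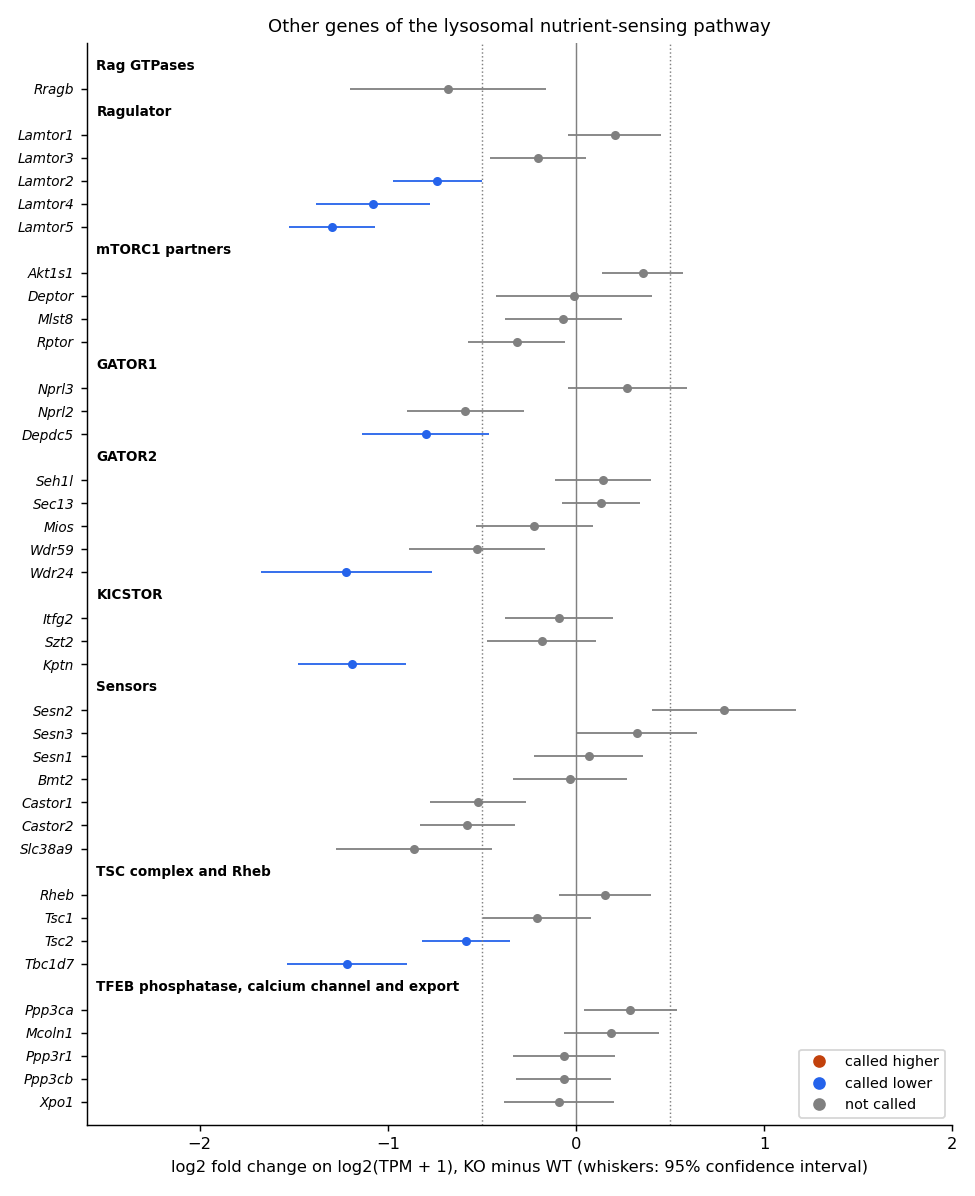
Log2 fold change, KO minus WT on log2(TPM + 1), for the 37 tested genes of the nutrient-sensing list, grouped by complex, with 95% confidence intervals as whiskers and dotted lines at 0.5 and -0.5. The 8 genes called lower (blue) lie in Ragulator, GATOR1, GATOR2, KICSTOR and the TSC complex, and 29 genes (grey) were not called.

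Known target genes of TFEB were examined as a second list, without the 10 genes. Of 30 genes, 28 were tested, and Atp6v0d2 and Ppargc1a lay below 1 TPM in both groups. In KO, 2 rose and 1 fell, beside 1.64% and 9.03% of all tested genes, and 25 were not called. The median log2 fold change was 0.15. All KO samples were above all WT samples for 11 of the 28 and below for 5, beside 13.3% and 29.9%, counted on TPM without further scaling only. At an unadjusted p under 0.05 in limma, 9 were higher, beside 12.2%, and 4 lower, beside 27.2%. The higher count depended on the scaling. After median-of-ratios scaling 17 were higher, beside 25.5%, and 4 lower, beside 26.6%. With voom 16 were higher, beside 24.7%, and 4 lower, beside 28.4%. Sqstm1, which encodes the autophagy receptor p62, was 247, 293 and 252 TPM in WT, against 411, 447 and 416 TPM in KO (log2 fold change 0.69, limma adjusted p = 0.00129). Ctsd, the lysosomal protease cathepsin D, was 231, 209 and 205 TPM in WT, against 309, 323 and 308 TPM in KO (log2 fold change 0.54, limma adjusted p = 0.00253). Neither gene had overlapping groups.

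The gene that fell was Sgsh, encoding the sulfamidase that degrades heparan sulfate. It was 8.39, 7.08 and 8.12 TPM in WT, against 2.24, 3.48 and 2.66 TPM in KO (log2 fold change -1.23, limma adjusted p = 0.000676). No KO sample of Sgsh reached the WT range, and it was called in each fit without 1 sample. Sqstm1 lost its call without KO 3 (0.71, limma adjusted p = 0.00528), KO 7 (0.65, limma adjusted p = 0.00587) or KO 10 (0.70, limma adjusted p = 0.00558). Ctsd kept its call without WT 4 and in no other such fit, in which its log2 fold change was 0.51 to 0.55 (limma adjusted p from 0.00858 to 0.0154). Among genes not called, the log2 fold change ran from -0.53 for Naglu to 0.47 for Lamp1. Some of these were called elsewhere: Lamp1 higher after median-of-ratios scaling (0.57), with voom (0.55) and without WT 4 (0.54), Map1lc3b higher after median-of-ratios scaling (0.51) and with voom (0.50), and Naglu lower at a group mean of at least 5 TPM (-0.53). Ctsd lost its call without the variance trend (0.54, limma adjusted p = 0.00860). The sum of markers of macrophages, cells rich in lysosomal enzymes, was higher in the KO samples, most of it Lyz2, as given above, and its part in these values was not tested.

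CACGTG was found upstream of 9 of the 24 target genes with a RefSeq window (37.5%) and TCACGTGA upstream of 4 (16.7%), Ctsa, Ctsd, Gla and Pip4p1. Of these 4, Ctsd was called higher and the other 3 were not called. Sgsh, which fell, also held CACGTG. In the nutrient-sensing list 6 of 32 genes with a window (18.8%) held CACGTG: Lamtor4 and Tbc1d7, which were called lower, Rragb, which was not called, and Lamtor1, Mcoln1 and Rheb, which were not called and had log2 fold changes of 0.21, 0.19 and 0.15. Mcoln1 was the gene of this list that held TCACGTGA. Over all genes with a window, 6.86% held CACGTG and 0.907% held TCACGTGA. The target list was made of genes known as targets of a factor that binds these letters, so its shares were partly set by that choice. These shares are descriptions, and the lists were not compared with other genes by a test.

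**Figure D5:**
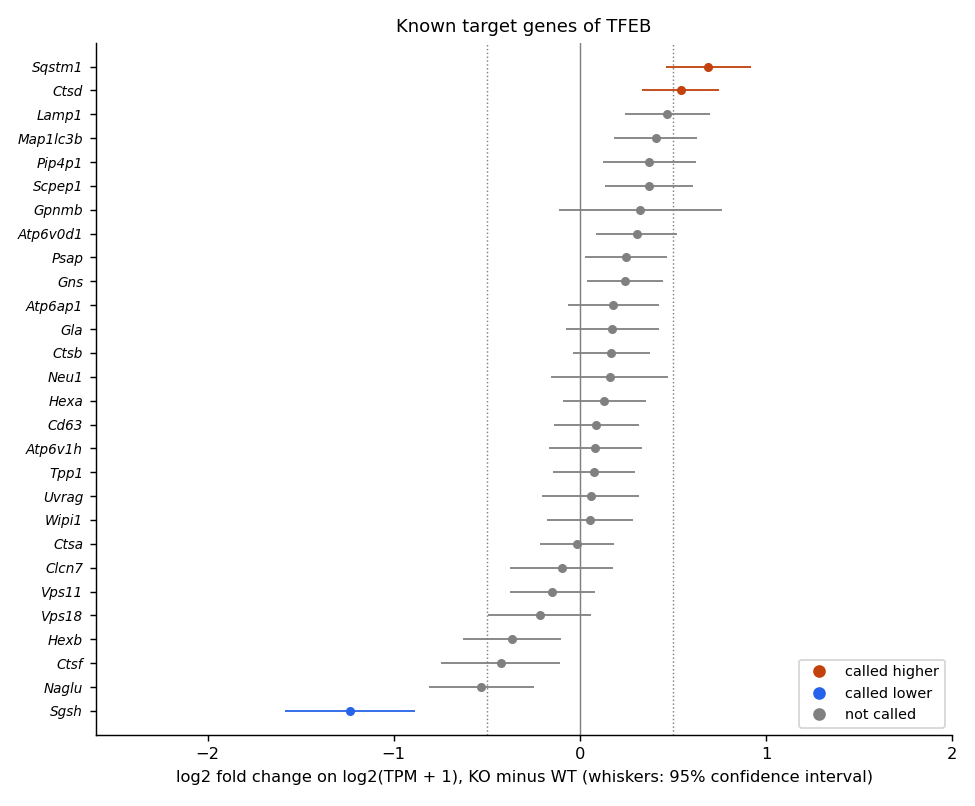
Log2 fold change, KO minus WT on log2(TPM + 1), for the 28 tested target genes of TFEB, in order of size, with 95% confidence intervals as whiskers and dotted lines at 0.5 and -0.5. Sqstm1 and Ctsd (orange) were called higher, Sgsh (blue) was called lower and 25 genes (grey) were not called.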

How the data were processed

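RNA from 3 WT and 3 KO cultures of primary MEFs was sequenced, grouped by title and genotype. Per the study's methods, reads were aligned to mm10 with STAR and tested with DESeq2, while the submitters' processing notes name Bowtie 0.12.2. The counting program and its strand setting are not given in the sources used here. The authors deposited TPM for 26898 genes. Columns in which the authors give their own log2 fold change and adjusted p-value of KO against WT were not used. All genes matched GENCODE M21, and TPM multiplied by exon length gave whole reads for 100% of values checked at a tolerance of 0.05. These reads are assigned to genes and cover counting depth only. The 14799 genes whose mean reached 1 TPM in WT or in KO were tested on log2(TPM + 1) by limma 3.58.1 (R 4.3.3), using a variance trend and Benjamini-Hochberg adjustment over all of them. Calls needed an adjusted p under 0.005 with a log2 fold change beyond 0.5 or -0.5. Balances between genes were tested by exact two-sided permutation over samples. Alternatives were a pseudocount of 0.1 TPM, no filter, a filter at 5 TPM, median-of-ratios scaling, voom with TMM on recovered reads, no variance trend, an adjusted p under 0.05 and leaving out each sample. The fit was tested on simulated data of 3 samples per group, with 200 genes changed by a log2 fold change of 1. At the same call it recovered 76% of them, and voom 91%. With 0 genes changed, both called 0. More genes were called in the data than were changed there, 242 higher and 1337 lower. By the rule for named genes, those beyond the 10 were Kansl1, Tfec, Rragb, up to 5 called genes per direction of each list, and the 3 genes most correlated with the called member that changed most. Every other list gene named, such as Lamtor1, Lamtor2, Lamtor3, Depdc5, Tsc2, Slc38a9, Sesn2, Castor1, Castor2, Naglu, Lamp1 and Map1lc3b, and every marker gene and Gm23935, was named after its values were seen, or only to say that it was not called, was not tested or held the letters searched for. The members and lists were chosen with earlier results of these data known. Upstream windows came from RefSeq on GRCm38.p6, with a window for all 10 genes, 32 of the 39 genes of the nutrient-sensing list and 24 of the 30 targets. A gene of the target list is not reported here, and list counts leave it out. Per the study's methods and legends, the MEFs were isolated from embryos, 3 of each genotype, and were counted as 3 animals per group.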

Additional observations from a re-analysis of the deposited data

How the results depend on the processing

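All results are limited by 3 samples per group, by 19 to 140 reads per sample for Tfeb, and by calls that lie near the threshold. No gene of the 10 changed sign under any alternative run, and the 6 balances kept their sign except the ratio of Rragd to Rragc, but 1 TPM added to each gene shrank the difference for Rraga to Rragb from 2.14 to 0.92 and for Tfeb to Tfe3 from -1.99 to -1.27, and leaving out KO 3 shrank that for Mitf to Tfe3 from -1.001 to -0.59. Genes of the 10 called higher numbered 0 without a filter, 4 after median-of-ratios scaling, 4 with voom and 0 to 2 without single samples (0 without WT 8, KO 7 or KO 10, and 1 without WT 5). Genes of the 10 called lower numbered 1 at a group mean of at least 5 TPM, 1 with voom, 2 at an adjusted p under 0.05 and 0 in each fit without 1 sample. Nutrient-sensing genes called higher numbered 1 at 5 TPM, 1 with voom, 1 at an adjusted p under 0.05 and 0 to 1 without single samples (1 without WT 5). Those called lower numbered 2 without a filter, 13 at an adjusted p under 0.05 and 4 to 6 without single samples (4 without WT 5, and 5 without WT 8, KO 3 or KO 10). Of all genes in the same fits, 0.204% were called higher and 1.06% lower without a filter, 3.31% and 14.7% at 5 TPM, 1.26% and 7.76% without the variance trend, 4.69% and 16.6% at an adjusted p under 0.05, and 0.568% to 1.7% and 4.16% to 6.34% without single samples. Target genes called higher numbered 0 without a filter, 4 after median-of-ratios scaling, 4 with voom, 1 without the variance trend and 0 to 3 without single samples (0 without KO 3, KO 7 or KO 10, and 1 without WT 5 or WT 8). Target genes called lower numbered 0 without a filter, 2 at 5 TPM, 2 at an adjusted p under 0.05 and 1 without any 1 sample. Sgsh, 1 of the 2 at 5 TPM, reached that limit through WT only, the group where it is high. Without a filter, more genes enter the adjustment, and Flcn (0.77, limma adjusted p = 0.00845) and Fnip1 (0.62, limma adjusted p = 0.00598) missed the call. Without single samples Flcn ranged from 0.67 to 0.86 and Fnip1 from 0.58 to 0.66. Calls were gained by Tfeb with voom (-1.45), Fnip2 after median-of-ratios scaling (0.60) and with voom (0.63), Rragc likewise (0.52 and 0.51) and Mtor at 5 TPM (-0.52), and in the nutrient-sensing list by Slc38a9, Sesn2, Castor1 and Castor2, and among targets by Lamp1, Map1lc3b and Naglu. The difference in the log2 ratio of Rragd to Rragc was reversed with 1 TPM added (-0.034) and without WT 4 (-0.064), WT 8 (-0.032) or KO 3 (-0.035), and ranged from -0.064 to 0.27 without single samples. The cause of these shifts was not tested. The filter at 5 TPM left out Tfeb, Mitf and Rragd, which then gave no value. No paired analysis was possible because no replicate number occurs in both groups.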
